A study of Homo sapiens with 24 samples.

Results

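Gene expression was compared between HBL-1 and K422, cell lines from human diffuse large B-cell lymphoma (DLBCL), in cells that had not been silenced for FOXP1. HBL-1 is a line of the activated B-cell (ABC) subtype and K422 (Karpas-422) a line of the germinal centre B-cell (GCB) subtype. The series paired siFOXP1 RNA and control RNA on 24 two-colour Agilent arrays from 4 DLBCL lines, 12 samples in all as line and replicate number, each hybridised with siFOXP1 #1 and with siFOXP1 #2 material. The control channel (Cy5) of the 6 HBL-1 and 6 K422 arrays was used here, which is 12 of the 24 arrays and 6 of the 12 samples, and the remaining 12 arrays hold OCI-Ly3 (ABC-DLBCL) and DB (GCB-DLBCL).

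All HBL-1 and K422 cells were electroporated with a Stealth RNAi Low GC negative control duplex (siCtrl) and harvested 48 h later, so they had been through nucleofection and carried a non-targeting duplex. The study describes 3 independent experiments per line, and the labels number them 1 to 3. The arrays of siFOXP1 #1 and #2 with the same number were averaged, because the labels do not say whether they share control RNA, which left 3 samples for HBL-1 and 3 for K422. With a single line per subtype, what belongs to ABC-DLBCL and what belongs to HBL-1 cannot be told apart, and the same holds for GCB-DLBCL and K422.

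DLBCL is divided by cell of origin. GCB-DLBCL keeps the programme of the germinal centre reaction, which is held by the repressor BCL6 and includes CD10 (MME), LMO2, the serpin SERPINA9 and the migration brake S1PR2. ABC-DLBCL resembles B cells arrested on the way to the plasma cell: it expresses IRF4, keeps IgM on its surface, and depends on chronic signalling from the B-cell receptor and MYD88 to NF-kB, which in turn drives cytokines that act through JAK kinases and STAT3. The plasma cell step itself needs PRDM1 and XBP1. FOXP1, a forkhead factor, is one of the proteins that immunohistochemical algorithms use to assign the ABC class.

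On each array 56.9% to 61.5% of the 41000 probes were well above background in the Cy5 channel, by the scanner software's own flag. Arrays of the same replicate number correlated at 0.9974 to 0.9988 across 20836 probes, arrays of other numbers of the same line at 0.9934 to 0.9968 in HBL-1 and 0.9837 to 0.9969 in K422, and arrays of different lines at 0.887 to 0.897. K422 replicate 1 stood apart: 634 genes lay more than 2-fold above and 225 more than 2-fold below the mean of the other K422 samples, against 24 to 108 and 32 to 163 in the other 5 samples. Leaving it out gave 10736 called genes, of which 10080 were among the 10470 called with it. A single slide held both lines (HBL-1 replicate 1 and K422 replicate 3), and within it 4819 of the 4821 genes called higher in HBL-1 and 5645 of the 5649 called higher in K422 kept their sign. Both samples had also taken part in the calls, so this agreement was largely fixed in advance and does not exclude an effect of the slide.

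A gene was called where the limma adjusted p was under 0.05 and the means differed by at least 0.5 on the log2 scale. Of 17896 genes tested, 26.9% were called higher in HBL-1 and 31.6% higher in K422, 58.5% in all, and for 75.3% the 3 samples of a line did not overlap those of the other. The median difference over all genes was -0.08 and the median absolute difference 0.68. These shares are the background for every count that follows, since a gene taken from anywhere in the table was more likely than not to be called. All levels below are log2 normalized Cy5 signals in the order replicate 1, 2 and 3, and all differences are HBL-1 minus K422 on the log2 scale with the standard error (SE) of the fit. Signals under about 4.03 to 4.33, depending on the sample, are below the dimmest probe well above background. A gene not well above background on any array of a line is therefore given as "at least" a fold, counted against that floor. Some probes with sample values above the floor, such as that of BIK in K422, did not pass on every array. The "at least" folds are thus no strict minimum. In a bulk culture, fewer expressing cells and less RNA per cell cannot be told apart.

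The transcripts of 6 cell-of-origin markers divided by subtype, 2 higher in HBL-1 and 4 higher in K422. All but LMO2 encode proteins that the Hans, Choi and Visco-Young algorithms stain. IRF4, the factor stained as MUM1, read 12.48, 12.89 and 12.75 in HBL-1 and 1.96, 1.93 and 1.95 in K422, where its probe (hg18 chr6:356002-356061) was not well above background on any array. IRF4 was thus at least 359-fold higher in HBL-1 (adjusted p = 6.12e-09). FOXP1 read 14.94, 15.09 and 14.98 in HBL-1 and 13.93, 13.79 and 13.79 in K422 at its probe on hg18 chr3:71091098-71091157, a difference of 1.17 ± 0.10 (adjusted p = 4.55e-05). Both lines therefore carried a strong FOXP1 signal in unsilenced cells, and the sets of samples did not overlap.

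Among the germinal centre markers, MME (CD10, a membrane metalloprotease) read 1.86, 2.05 and 1.95 in HBL-1 and 9.96, 10.18 and 10.28 in K422, at least 63.1-fold higher in K422 (adjusted p = 1.24e-08). SERPINA9 (GCET1) read 3.99, 3.25 and 4.05 against 10.73, 9.98 and 10.36, at least 73.2-fold higher in K422. Neither was well above background on any HBL-1 array. LMO2 read 6.29, 6.32 and 6.23 in HBL-1 and 9.65, 8.39 and 8.56 in K422, a difference of -2.59 ± 0.32 in which K422 replicate 1 was the highest sample. BCL6 was well above background on all 12 arrays: it read 13.06, 12.79 and 12.87 in HBL-1 and 14.64, 14.23 and 14.22 in K422 (difference -1.45 ± 0.15, adjusted p = 0.000136). The BCL6 transcript was 2.74-fold higher in K422, a far smaller contrast than that of IRF4.

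Of 27 ABC signature genes, 26 were called higher in HBL-1 and none in K422, with a median difference of 5.68 against -0.08 over all genes. Of the 27, 8 were not well above background on any K422 array, and 17 of the 27 were well above background on all 12 arrays. IGHM, the heavy chain of IgM, read 16.95, 16.86 and 16.84 in HBL-1 and 3.49, 3.35 and 3.79 in K422, where 1 of 6 arrays was well above background. CD44, a hyaluronan receptor, read 15.85, 15.76 and 15.54 against 4.04, 3.97 and 3.66, at least 2896-fold higher in HBL-1. CCND2 (cyclin D2) read 14.50, 14.46 and 14.42 in HBL-1 and between 3.00 and 3.14 in K422, at least 1210-fold higher.

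The reductase gene CYB5R2 was at least 2709-fold, the BAFF and APRIL receptor TNFRSF13B at least 142-fold, the ectonucleotidase ENTPD1 at least 93.5-fold and the secretory pathway factor CREB3L2 at least 76.8-fold higher in HBL-1. Other members were measured on all 12 arrays. BATF, an AP-1 factor, read 15.06, 15.09 and 15.11 in HBL-1 and 5.47, 4.89 and 5.25 in K422 (difference 9.88 ± 0.15). The serine kinase PIM1 read 16.42, 16.07 and 16.32 against 8.55, 8.44 and 8.38 (difference 7.81 ± 0.12). STAT3 read 9.84, 10.17 and 9.97 against 6.81, 6.65 and 6.49 (difference 3.35 ± 0.13), and PRKCB, a protein kinase C of the B-cell receptor pathway, 13.91, 13.68 and 13.65 against 9.28, 9.11 and 9.38 (difference 4.49 ± 0.12).

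The smallest called difference in the list was that of the adaptor SLA, 0.80 ± 0.09. BCL2, the survival factor, was not called: the probe that represents it, at hg18 chr18:59136115-59136150, read 9.74, 9.68 and 9.74 in HBL-1 and 9.74, 9.67 and 9.56 in K422 (difference 0.07, 95% interval -0.16 to 0.29). The other BCL2 probe, at hg18 chr18:58941703-58941762, gave a mean of 12.61 in HBL-1 and 2.19 in K422, where it was well above background on none of 6 arrays. The probes of this gene disagree, and the rule that takes the brightest kept probe chose between them on their mean over both lines, so no level of BCL2 is settled here.

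**Figure D1:**
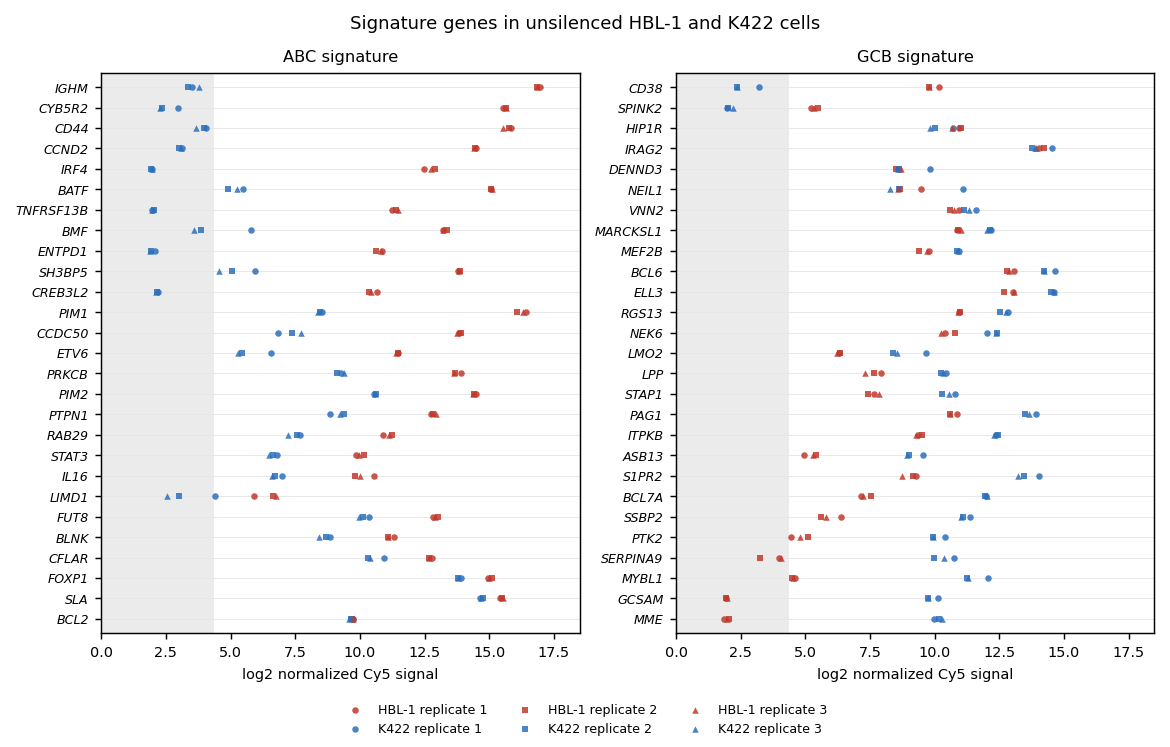
Log2 normalized Cy5 signal of ABC signature genes (left, all 27 tested) and GCB signature genes (right, 27 of 28 tested) in the 3 HBL-1 samples (red) and 3 K422 samples (blue), ordered by difference; the grey band ends at the highest of the sample floors. All left-hand genes but BCL2 lie to the right in HBL-1, and 21 right-hand genes lie higher in K422 while CD38, SPINK2 and HIP1R lie higher in HBL-1.

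Of 28 GCB signature genes tested, 21 were called higher in K422, 3 higher in HBL-1 and 4 neither, with a median difference of -2.19. MAML3 had no probe past the filter. GCSAM, which encodes the germinal centre protein HGAL, read 1.94, 1.91 and 1.96 in HBL-1 and 10.14, 9.75 and 9.75 in K422, at least 52.7-fold higher in K422. MYBL1, a germinal centre MYB factor, read 4.61, 4.49 and 4.51 against 12.05, 11.25 and 11.27 and was well above background on 5 of the 6 HBL-1 arrays. S1PR2, which holds B cells in the germinal centre, read 9.27, 9.15 and 8.75 against 14.02, 13.44 and 13.22 (difference -4.51 ± 0.23). Its other probe differed by -1.42, so the size for S1PR2 is not settled. BCL7A read 7.16, 7.54 and 7.23 against 11.97, 11.95 and 12.01 (difference -4.67 ± 0.12). In each of these genes every K422 sample lay above every HBL-1 sample.

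CD38, an ectoenzyme of germinal centre B cells and also of plasma cells, read 10.16, 9.79 and 9.78 in HBL-1 and 3.20, 2.36 and 2.36 in K422, where no array was well above background, and was at least 51.6-fold higher in HBL-1 (adjusted p = 6.03e-07). SPINK2, a protease inhibitor, was dim in both lines, at 5.21, 5.49 and 5.32 against 1.97, 2.02 and 2.20, at least 2.18-fold higher in HBL-1. HIP1R, an endocytic adaptor, read 10.95, 11.02 and 10.66 against 10.72, 10.01 and 9.84 (difference 0.69 ± 0.24, adjusted p = 0.0364), K422 replicate 1 overlapped the HBL-1 samples, and the call was lost under 6 of 23 alternative settings.

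IRAG2 read 14.02, 14.23 and 13.92 against 14.54, 13.76 and 13.90, with a difference of -0.01 (95% interval -0.52 to 0.50). For the DNA glycosylase NEIL1 the spread was wide, at 9.46, 8.66 and 8.57 against 11.09, 8.61 and 8.28, and the difference of -0.43 became 0.46 without K422 replicate 1 (adjusted p = 0.189). DENND3 followed the same pattern, at 8.60, 8.51 and 8.69 against 9.84, 8.62 and 8.57. In these 3 genes the lines overlapped.

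The factors that set B cell and plasma cell identity did not lean to a line: of 22, 10 were higher in HBL-1 and 9 in K422, with a median difference of -0.01. By role, the germinal centre factors were higher in K422 for 5 of 6, the exception being ID3. The B cell identity factor PU.1, encoded by SPI1, read 4.55, 4.93 and 4.78 in HBL-1 and 8.21, 8.11 and 7.82 in K422 (difference -3.29 ± 0.15). IRF8 read 9.91, 10.05 and 10.10 against 11.53, 11.77 and 11.86 (difference -1.70 ± 0.12), and FOXO1, which maintains the dark zone, 13.03, 12.61 and 12.55 against 14.49, 14.15 and 14.27 (difference -1.58 ± 0.16). The B cell coactivator POU2AF1 differed by -0.96 ± 0.09. These factors were well above background in both lines, on all but 1 of the 12 arrays for SPI1.

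SPIB, an ETS factor used as an ABC hallmark, read 15.01, 15.00 and 14.90 in HBL-1 and 13.41, 13.17 and 12.81 in K422 (difference 1.84 ± 0.16). BACH2, which restrains plasma cell differentiation, was 2.06 ± 0.14 higher in HBL-1. Among the plasma cell factors, XBP1 was 0.60 ± 0.10 higher in HBL-1. PRDM1 (Blimp-1) was dim in both lines, at 5.79, 4.76 and 5.10 in HBL-1 and 5.11, 5.21 and 5.59 in K422, and the difference of -0.08 had a 95% interval of -0.73 to 0.57. The samples of the lines overlapped for PRDM1.

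NF-kB factors are dimers of 5 subunits held in the cytoplasm by IkB proteins, and many of their targets are their own subunits and inhibitors. Of 35 tested genes of the NF-kB list, 26 were higher in HBL-1, 6 higher in K422 and 3 not called, with a median difference of 2.96. All 5 subunits were higher in HBL-1, RELA only just past the limit on size and below it under 8 of 23 alternative settings. RELB read 14.28, 14.61 and 14.45 against 11.08, 10.02 and 9.87 (difference 4.12 ± 0.31), and NFKB2, its p52 partner, 9.08, 9.10 and 8.92 against 5.59, 5.08 and 4.90 (difference 3.84 ± 0.19). NFKB1 differed by 2.35 ± 0.10, REL by 1.29 ± 0.18 and RELA by 0.50 ± 0.10, so the alternative pathway subunits showed the larger differences. CCL22 and CXCL10 had no probe past the filter.

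Of the 8 genes grouped as IkB proteins and other inhibitors, 7 were higher in HBL-1 and TNIP1 was not called. The group holds nuclear IkB proteins such as BCL3, so its count is not one of inhibitors alone. TNFAIP3 (A20), the deubiquitinase that ends NF-kB signalling, read 10.35, 10.19 and 10.28 in HBL-1 and 2.32, 2.17 and 2.16 in K422, at least 66.6-fold higher in HBL-1. The nuclear IkB protein BCL3 read 13.89, 13.81 and 13.84 against 6.78, 5.57 and 5.83 (difference 7.79 ± 0.30). NFKBIE read 16.19, 15.94 and 16.00 against 11.49, 11.44 and 11.43 (difference 4.59 ± 0.10). NFKBIA, the classical inhibitor, had a far smaller difference of 1.11 ± 0.21, with all 3 HBL-1 samples (14.13, 13.63 and 14.13) above all K422 samples (13.21, 12.63 and 12.73).

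Among the targets, 14 of 22 were higher in HBL-1 and 6 higher in K422, of which CCL4 lost its call under 9 of 23 alternative settings. CCR7, the receptor that draws B cells toward the T zone, read 15.24, 14.92 and 14.89 against 7.78, 6.29 and 6.13 (difference 8.28 ± 0.42). CD83, an activation marker, read 14.09, 13.94 and 13.86 against 7.42, 6.56 and 6.54 (difference 7.12 ± 0.24). The apoptosis inhibitor BIRC3 read 12.93, 12.68 and 12.92 against 7.73, 6.23 and 5.91 (difference 6.22 ± 0.44). For these 3 genes K422 replicate 1 was the highest of the K422 samples and still lay far below HBL-1. EBI3, a cytokine subunit, read 12.31, 12.43 and 12.27 against 3.90, 2.45 and 2.45, with this probe well above background on none of the K422 arrays, and the adhesion ligand ICAM1 was at least 43.7-fold higher in HBL-1. IL6 (7.23, 7.11 and 7.29 against 2.27, 2.26 and 2.30) was at least 7.96-fold higher, and IL10 read 8.92, 8.49 and 9.02 against 3.47, 4.14 and 4.38.

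The 6 targets higher in K422 included 3 ligands of the TNF superfamily, whose genes lie side by side on chromosome 6. LTA read 6.16, 5.65 and 6.06 in HBL-1 and 8.84, 8.63 and 8.80 in K422 (difference -2.80 ± 0.15), LTB 12.71, 12.28 and 12.40 against 15.60, 14.74 and 14.60 (difference -2.52 ± 0.27), and TNF 10.81, 10.37 and 10.65 against 12.92, 12.36 and 12.13 (difference -1.86 ± 0.22). Their probes lie at hg18 chr6:31649133-31649192, chr6:31656448-31656507 and chr6:31653816-31653875. The signalling adaptor TRAF1 differed by -1.16 ± 0.21 and PLEK by -0.92 ± 0.15. CCL4, a chemokine, was far higher in K422 replicate 1 (13.54) than in the other K422 samples (10.80 and 10.84), and its difference of -1.90 fell to -0.99 without that sample (adjusted p = 0.000627). CCL3 showed the same outlying value, 13.56 against 9.80 and 9.93, and was not called.

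Promoter sequences are printed for 4 members of the list, of the 3 roles and both directions, because they show the kB motif that NF-kB dimers recognise beside genes that differed between the lines. A motif of GGGA and TTCC with any 2 bases between them was searched on both strands of each RefSeq promoter sequence (GRCh38.p14). The counts cover the whole sequence of each promoter, and the part printed below is the 250 bases before the start. The motif was present in 564 of 35116 promoters (1.606%), and in 537 of 27305 genes (1.967%). Of 30 NF-kB list genes with a promoter in the table, 13 (43.33%) held it. None of 22 ABC signature genes did, and 2 of 23 GCB signature genes, MME and NEK6, did. The list was drawn up from genes known as NF-kB targets, so its share describes the list. The 250 bases upstream of each start follow 5′ to 3′ on the gene's strand, with the motif, or its reverse complement, in capitals. CD83 (chr6:14117522-14117771, plus strand) holds overlapping matches on both strands, 50 bases before the start. NFKB2 (chr10:102395455-102395704, plus strand) holds it 21 bases before the start, TNFAIP3 (chr6:137867009-137867258, plus strand) 67 bases and LTB (chr6:31582426-31582675, minus strand) 86 bases before it.
CD83: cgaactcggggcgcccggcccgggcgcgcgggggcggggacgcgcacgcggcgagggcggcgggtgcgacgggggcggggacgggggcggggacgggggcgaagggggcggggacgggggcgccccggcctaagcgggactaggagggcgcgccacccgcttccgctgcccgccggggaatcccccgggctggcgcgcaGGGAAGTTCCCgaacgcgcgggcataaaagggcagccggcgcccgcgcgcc
NFKB2: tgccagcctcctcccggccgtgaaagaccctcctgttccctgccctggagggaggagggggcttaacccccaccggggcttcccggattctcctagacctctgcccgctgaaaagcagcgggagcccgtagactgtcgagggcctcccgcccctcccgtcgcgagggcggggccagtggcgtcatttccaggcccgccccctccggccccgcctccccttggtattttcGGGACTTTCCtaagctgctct
TNFAIP3: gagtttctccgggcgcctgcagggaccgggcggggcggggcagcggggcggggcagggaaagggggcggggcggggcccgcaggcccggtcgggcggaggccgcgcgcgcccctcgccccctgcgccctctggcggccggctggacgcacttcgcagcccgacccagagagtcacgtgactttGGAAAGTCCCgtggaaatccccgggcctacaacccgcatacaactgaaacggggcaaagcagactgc
LTB: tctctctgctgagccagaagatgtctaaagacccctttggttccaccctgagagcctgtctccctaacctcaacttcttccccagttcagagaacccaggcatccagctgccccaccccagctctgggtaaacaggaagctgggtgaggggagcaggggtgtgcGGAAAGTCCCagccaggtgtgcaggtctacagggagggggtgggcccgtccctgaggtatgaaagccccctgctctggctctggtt
The first 3 genes were higher in HBL-1 and LTB was higher in K422, so a match of these letters stood beside differences in both directions. A match is a description of the sequence and no binding was measured.

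The B-cell receptor and MYD88 list leaned to HBL-1 by less, with 15 of 32 genes higher in HBL-1, 7 higher in K422, 10 not called and a median difference of 0.49. The receptor's signalling chains CD79A (16.90, 16.58 and 16.74 against 16.14, 15.59 and 15.42) and CD79B (14.77, 14.64 and 14.78 against 13.82, 13.45 and 13.42) differed by 1.03 ± 0.20 and 1.17 ± 0.13. Both chains were strong in both lines, in contrast with IGHM.

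Of the 6 genes of the Toll-like receptor arm, 1 was higher in HBL-1 and 3 higher in K422. MYD88 itself read 11.04, 11.38 and 11.36 in HBL-1 and 12.20, 11.72 and 11.92 in K422 (difference -0.69 ± 0.16, adjusted p = 0.00721). FCGR2B, the inhibitory Fc receptor, read 10.64, 10.65 and 10.79 against 14.09, 13.97 and 14.10 (difference -3.36 ± 0.10). The inhibitory coreceptor CD72 was higher in HBL-1, at 11.74, 11.43 and 11.59 against 8.36, 6.63 and 6.27. Inhibitors of the receptor thus differed in both directions.

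Of 24 tested genes of the JAK and STAT list, 15 were higher in HBL-1 and 6 in K422, with a median difference of 3.13. The ligands IL6 and IL10 and 6 of 7 receptor chains were higher in HBL-1, IL6R by at least 14.0-fold and IL10RA by 2.77 ± 0.09. JAK1 was higher in HBL-1, and JAK3 differed by 4.52 ± 0.21 at its brighter probe and by -0.05 at the other, so the JAK3 probes disagree. SOCS3, the feedback inhibitor induced by STAT3, read 9.87, 10.27 and 9.83 in HBL-1 and 1.98, 1.97 and 1.96 in K422, at least 54.7-fold higher in HBL-1.

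The feedback inhibitors SOCS1 and CISH were on the K422 side. SOCS1 read 6.92, 7.01 and 7.07 in HBL-1 and 12.28, 11.38 and 11.42 in K422 (difference -4.69 ± 0.24). CISH, a target of STAT5, read 5.79, 3.62 and 4.29 against 7.93, 9.22 and 9.83. Unlike STAT3, STAT5A, STAT5B and STAT6 were called higher in K422, although the STAT5A samples overlapped and its difference was -0.62 with and -0.49, no longer called, without K422 replicate 1.

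**Figure D2:**
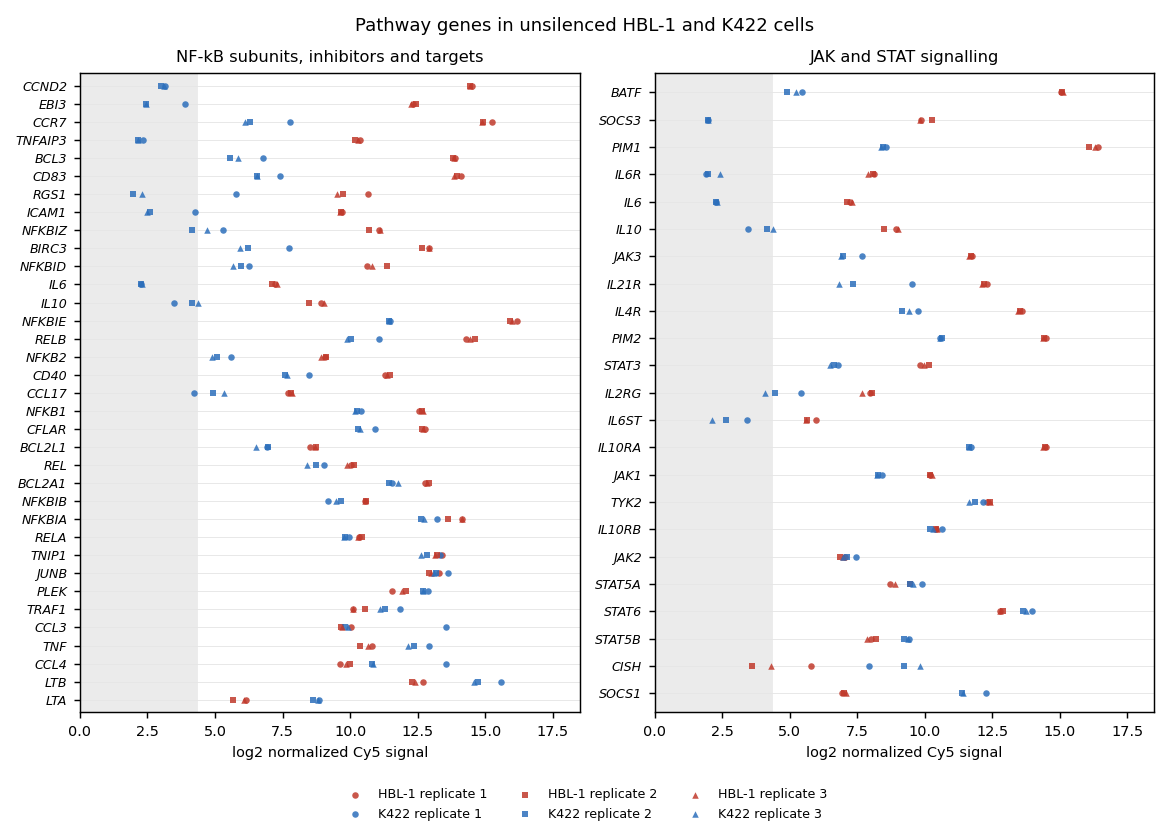
Log2 normalized Cy5 signal of genes of the NF-kB list (left, all 35 tested) and the JAK and STAT list (right, 23 of 24 tested) in each HBL-1 (red) and K422 (blue) sample, ordered by difference; the grey band ends at the highest of the sample floors. Most rows have HBL-1 to the right, while LTA, LTB and TNF at the foot of the left panel and CISH and SOCS1 at the foot of the right panel have K422 to the right.

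In the PI3K and FOXO list 5 of 17 genes were higher in HBL-1 and 7 in K422 (median difference -0.41). TCL1A, a coactivator of AKT kinases, read 5.56, 5.26 and 5.42 in HBL-1 and 13.56, 13.18 and 13.50 in K422 (difference -8.00 ± 0.14). AKT1 differed by -2.16 ± 0.10 and the kinase subunit PIK3CG by -2.15 ± 0.12. FOXO1, FOXO3 and FOXO4 were higher in K422, but FOXO3 lost its call under 8 of 23 alternative settings and FOXO4 under 3 of 22.

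The BCL2 family, which sets the threshold of mitochondrial apoptosis, had 7 of 15 genes higher in HBL-1 and 3 in K422. The median difference of the list, 0.07, is that of BCL2 itself at its unsettled probe. Of the 8 death-promoting BH3-only genes, 5 were higher in HBL-1. BMF read 13.21, 13.37 and 13.21 against 5.78, 3.87 and 3.58, with 3 of 6 K422 arrays well above background, and BIK 11.06, 10.87 and 10.67 against 4.84, 4.53 and 4.39, with 4 of 6. Of the survival genes, BCL2L1 (difference 1.85 ± 0.15) and BCL2A1 were higher in HBL-1 and BCL2L2 (difference -1.76 ± 0.09) in K422.

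Of the 16 tested G1 regulators, 9 were higher in HBL-1 and 3 in K422. Of the 9, CDK6 lost its call under 13 of 23 alternative settings and CDKN2C under 7 of 23. CCND2 carried the largest difference. The inhibitor CDKN2A read 7.97, 7.78 and 7.89 in HBL-1 and 14.32, 14.27 and 13.98 in K422 (difference -6.31 ± 0.12). CDKN1A (p21) read 12.29, 12.78 and 12.32 against 9.92, 8.55 and 8.21. MYC was not called, at 14.07, 13.83 and 14.08 against 13.82, 13.72 and 13.76 (difference 0.22, 95% interval -0.02 to 0.47). The differences of its 3 probes ranged from -0.55 to 0.22, so the direction for MYC is not settled.

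MHC class II genes, which present antigen to CD4+ T cells under control of the coactivator CIITA, were read with care, because probes of HLA paralogs and alleles can share targets and a line's own alleles can change hybridisation. Of 22 genes, 3 were higher in HBL-1 and 11 in K422, with a median difference of -0.51, and all 22 were well above background in both lines. CIITA read 11.46, 10.92 and 11.01 in HBL-1 and 11.65, 11.32 and 11.43 in K422 (difference -0.34, 95% interval -0.74 to 0.07). Its other probes differed by -0.25, 0.40 and 0.68, so the direction for CIITA is not settled. Without HBL-1 replicate 1 the CIITA difference was -0.50 and was called. HLA-DRA read 13.16, 12.77 and 12.55 against 13.11, 12.71 and 12.67 (difference 0.00, 95% interval -0.46 to 0.46), and the invariant chain CD74 12.09, 11.96 and 11.80 against 12.08, 11.89 and 11.79. At the probes used and with all samples, the regulator, the DR alpha chain and the invariant chain were thus not called.

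Of the 11 classical chains, 9 were higher in K422. HLA-DPA1 read 13.64, 13.22 and 13.01 in HBL-1 and 15.46, 14.97 and 14.80 in K422 (difference -1.79 ± 0.22). HLA-DQA1 differed by -0.62, -5.41 and -11.37 at its 3 probes, so no size is given for it. HLA-DOB, which restrains peptide loading, read 7.29, 6.69 and 6.80 against 10.96, 10.01 and 10.18 (difference -3.46 ± 0.28). Without K422 replicate 1, HLA-DRB3, HLA-DQA1 and HLA-DQB2 were no longer called, and in the Cy3 channel, which holds RNA of silenced cells, HLA-DQA1 and HLA-DQB2 changed sign (0.05 and 0.09).

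In the class I list 7 of 13 genes were higher in K422 and 1, HLA-F, in HBL-1 (median difference -0.72). HLA-F lost its call under 10 of 23 alternative settings, and HLA-E, among the 7, under 11 of 23. TAP1, the peptide transporter, read 12.07, 12.04 and 12.10 in HBL-1 and 15.42, 14.73 and 15.12 in K422 (difference -3.02 ± 0.17). The immunoproteasome genes PSMB8 and PSMB9 and the light chain B2M were also higher in K422. HLA-B and HLA-C were not called, and their K422 replicate 1 values were the highest of that line. HLA-E fell below the size limit without that sample (difference -0.72 with and -0.40 without it). NLRC5, the class I coactivator, differed by -0.78 at its brightest probe and by 1.72 and 1.71 at the others, so its direction is not settled.

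Surface genes differed in both directions, with 11 of 22 higher in HBL-1 and 9 in K422. Beyond CD44 and CD38, SLAMF7, a plasma cell antigen, read 13.57, 13.32 and 12.95 in HBL-1 and 7.06, 6.30 and 5.88 in K422 (difference 6.87 ± 0.31), and FCRL5 was at least 33.3-fold higher in HBL-1. CD27, a memory marker, read 7.80, 7.21 and 7.42 against 13.33, 13.02 and 13.09 (difference -5.67 ± 0.17). CD58, the ligand of CD2, read 1.83, 1.80 and 1.82 against 7.05, 6.92 and 7.13, at least 7.33-fold higher in K422. CD86 read 9.75, 7.68 and 8.08 against 11.31, 13.56 and 13.35, with K422 replicate 1 the lowest sample of its line. SDC1 (CD138), a plasma cell antigen, was higher in K422 (7.78, 8.08 and 8.02 against 10.15, 10.25 and 10.25), so the plasma cell antigens were divided between the lines.

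Of 25 migration genes, 11 were higher in HBL-1 and 9 in K422, and 7 of the 10 receptors were higher in HBL-1. CXCR5, the follicle homing receptor, read 14.38, 14.41 and 14.31 in HBL-1 and 2.14, 2.05 and 2.71 in K422, at least 1134-fold higher in HBL-1. S1PR1, the egress receptor, was at least 41.7-fold higher in HBL-1, whereas S1PR2, which opposes it, was higher in K422. GPR183, which moves B cells to the edge of the follicle, differed by 3.68 ± 0.14. The integrin chain ITGA4 read 2.19, 2.26 and 2.18 against 9.86, 9.78 and 9.92, at least 51.6-fold higher in K422, and RGS16, which damps chemokine signals, 7.28, 7.52 and 6.85 against 14.33, 13.75 and 13.95. CXCR4 overlapped between the lines (difference 0.81, 95% interval -0.25 to 1.86).

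**Figure D3:**
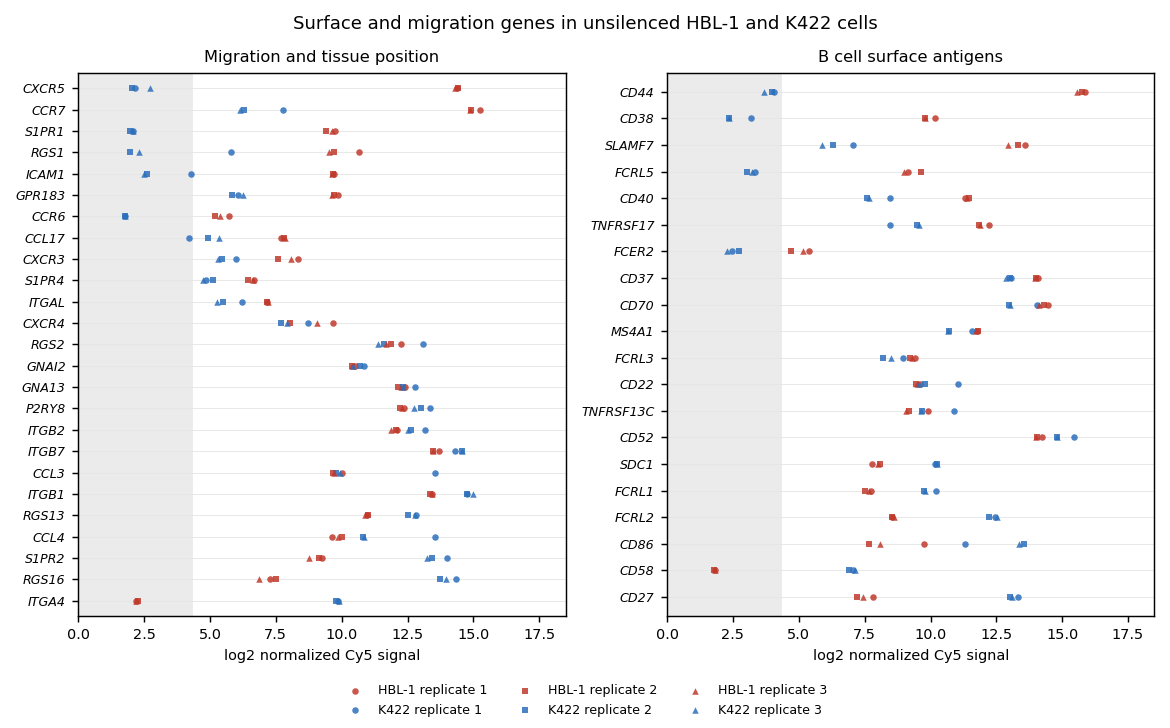
Log2 normalized Cy5 signal of the tested migration genes (left, 25) and B cell surface antigens (right, 20 of 22) in each HBL-1 (red) and K422 (blue) sample; the grey band ends at the highest of the sample floors. CXCR5 and CD44 are at the head of the panels with HBL-1 far to the right, and ITGA4 and CD27 near the foot have K422 to the right.

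Outside the lists, the genes with the largest differences among those measured in every sample were taken by rule. After BATF, the genes furthest on the HBL-1 side were SLC2A5 (difference 8.88 ± 0.12), a fructose transporter, NIBAN3 (8.67 ± 0.10) and SH3BP5 (8.66 ± 0.32). The other SLC2A5 probe differed by 2.59, so the size for SLC2A5 is not settled. LILRA4, best known from plasmacytoid dendritic cells, read 14.03, 13.83 and 13.47 in HBL-1 and 4.99, 5.42 and 5.72 in K422. The lactate transporter SLC16A3 (difference 7.94 ± 0.44), the amino acid oxidase IL4I1 (7.89 ± 0.44) and the checkpoint receptor PDCD1 (7.86 ± 0.18) followed. PDCD1 read 14.27, 14.15 and 13.94 in HBL-1 and 6.62, 5.99 and 6.16 in K422.

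On the K422 side the same rule gave 2 interferon-induced genes. IFITM1, a membrane protein that blocks viral entry, read 5.80, 6.17 and 5.78 in HBL-1 and 17.57, 16.27 and 16.64 in K422 (difference -10.91 ± 0.32). IFI27 read 6.17, 6.14 and 6.02 against 16.62, 13.62 and 14.16, with K422 replicate 1 the highest. The glycosyltransferase POMGNT2 (difference -9.34 ± 0.14), the actin-binding protein gene ABLIM1 (-8.25 ± 0.15), CHST2 (-6.92 ± 0.19), ALDH2 (-6.78 ± 0.18), the serotonin receptor HTR3A (-6.74 ± 0.13) and LRIG1 (-6.63 ± 0.09) made up the rest beside TCL1A and RGS16.

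Genes not well above background on any array of a line gave the widest bounds. In HBL-1 the cancer-testis antigen gene CTAG1A was at least 3044-fold higher, though its near-identical copy CTAG1B can share the probe, PLK5 at least 2448-fold and BEX3 at least 1856-fold. In K422 the proteoglycan gene DCN read 15.35, 15.45 and 15.76 against 3.05, 2.06 and 1.83 in HBL-1, at least 2623-fold higher. RGL4 (at least 1573-fold), the proteasome chaperone gene PSMD9 (at least 965-fold) and the peroxidase gene PRDX2 (at least 837-fold) followed.

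Labelled identity was checked with markers. The 6 B cell markers, among them MS4A1, CD79A, CD79B, CD22 and PAX5, were well above background on all arrays, and their summed signal was 17.20 to 17.44 on the log2 scale in HBL-1 and 16.80 to 17.31 in K422. Of 9 T cell markers 5 were tested, and their summed signal was 11.76 to 11.97 in HBL-1 and 13.84 to 13.94 in K422. CD3D read 11.92, 11.85 and 11.92 in K422 and CD3G 12.90, 12.96 and 13.06, with neither well above background on any HBL-1 array, while CD3E (5.92, 6.17 and 6.31 in HBL-1 against 5.73, 6.28 and 6.09 in K422) was close in both. CD8A was higher in HBL-1 (6.34, 6.39 and 5.85 against 4.71, 3.86 and 3.94), with 1 of 6 K422 arrays well above background, and CD247 was not called (11.87, 11.69 and 11.92 against 11.60, 11.60 and 11.64), while CD2, CD8B, TRAT1 and GATA3 had no probe past the filter. The part of CD3D and CD3G, high in all 3 K422 samples, in the other results was not tested.

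Of 6 NK cell markers 2 were tested, PRF1 and NCR1, both higher in HBL-1 (PRF1 at least 22.1-fold), with summed signals of 8.98 to 9.48 in HBL-1 and 3.73 to 5.09 in K422. Of 8 myeloid markers 2 were tested, with sums of 7.06 to 7.61 and 6.20 to 6.57, and LYZ, ITGAM, S100A8, S100A9, MPO and CD163 did not pass. Of 8 fibroblast and epithelial markers 4 were tested, with sums of 10.66 to 10.69 and 15.39 to 15.79. The collagens COL1A1, COL1A2 and COL3A1 did not pass beside DCN, nor did CDH1 beside EPCAM. EPCAM was at least 50.3-fold higher in HBL-1 (9.90, 9.80 and 9.91 against 2.16, 2.14 and 2.16). The keratins KRT8 and KRT18 went the other way and were called higher in K422 (differences -0.55 and -0.77). KRT8 lost its call under 3 of 23 alternative settings.

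Of 8 tested genes the study followed as responsive to FOXP1, or FOXP1 itself, 3 were higher in HBL-1 and 2 in K422. The study picked several genes by fold change on these arrays, while it names HIP1R as a target already known. The list is thus no independent evidence. Of 10 reference genes none was higher in HBL-1 and 2, GAPDH and HPRT1, were higher in K422 (GAPDH by 0.58 on the log2 scale), and TBP read 9.39, 9.38 and 9.44 against 9.39, 9.41 and 9.42.

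**Figure D4:**
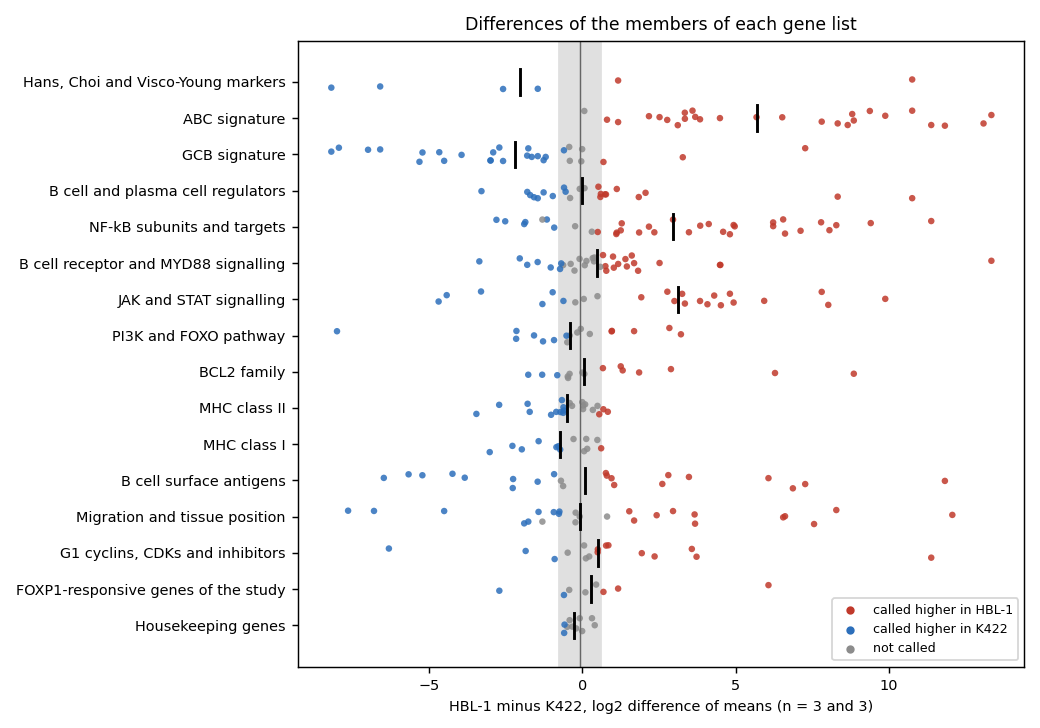
Difference of the means, HBL-1 minus K422 on the log2 scale, for every tested member of each gene list, coloured by the call, with the list's median as a black bar; the grey band holds the middle 50% of all 17896 genes around their median of -0.08. The ABC, NF-kB and JAK and STAT lists have their medians at 5.68, 2.96 and 3.13, and the GCB list at -2.19.

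Another ABC and GCB pair was set beside this one with OCI-Ly3 and DB, which share no sample with HBL-1 and K422 but were scanned in a session of their own. Of the genes higher in HBL-1, 42.1% were also higher in OCI-Ly3, against a background of 25.3% of all genes higher in OCI-Ly3, and these are 44.8% of the OCI-Ly3 calls, against 26.9% of all genes higher in HBL-1. Of the 5649 genes higher in K422, 2375 were also higher in DB, against a background of 31.0% of all genes, and these are 42.9% of the DB calls, against 31.6% of all genes higher in K422. The difference between the pairs was itself called for 30.8% of genes in the direction of HBL-1 and 29.6% in the other.

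IRF4 was higher in the ABC line of both pairs and was not well above background on any K422 or DB array, so its differences were not compared. FOXP1 was higher in the ABC line of both pairs (1.17 and 1.32, limma adjusted p of the difference between pairs 0.376). Of the ABC signature, 25 of 27 were higher in OCI-Ly3 than in DB, and those 25 were also higher in HBL-1. PRKCB was the member with opposite calls, at 4.49 in HBL-1 minus K422 and lower in OCI-Ly3 than in DB, where no OCI-Ly3 array was well above background. The GCB signature was less shared: 14 of 28 were higher in DB and 8 higher in OCI-Ly3, and 11 were higher in both GCB lines. MYBL1 (-6.99 and -7.80), BCL6 (-1.45 and -2.32), MME and SERPINA9 were among these, with MME at background on all HBL-1 and OCI-Ly3 arrays and SERPINA9 on all HBL-1 arrays.

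PRDM1 had a difference of -0.08 here and 7.77 in the other pair, where it was well above background on 1 of 6 DB arrays. LMO2, lower in HBL-1 by this comparison, was not called between OCI-Ly3 and DB (0.71). Of the 22 B cell and plasma cell regulators, 7 had opposite calls in the pairs: BACH2, ID3, TCF3, POU2AF1, FOXO1, IRF8 and ZBTB20. Of the 6 germinal centre factors, 2 were higher in OCI-Ly3 and 2 in DB, and 1 was higher in both GCB lines. In the NF-kB list 28 of 35 genes were higher in OCI-Ly3, 21 of them also in HBL-1. The subunits were shared by 2 of 5, with REL on the DB side (-0.69), while TNF, LTA and LTB were higher in OCI-Ly3 than in DB and lower in HBL-1 than in K422. LTB was higher in OCI-Ly3 by 5.17 and TNF by 7.36, with TNF well above background on 4 of 6 DB arrays and LTA on none.

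The MHC class II contrast also differed by pair, with 19 of 22 genes higher in OCI-Ly3 than in DB and 3 of 22 higher in HBL-1 than in K422. HLA-DRA was 7.50 higher and CIITA 8.87 higher in OCI-Ly3 than in DB, against 0.00 and -0.34 here (limma adjusted p of the difference between pairs 8.76e-09 and 3.87e-06). CIITA in DB was well above background on 2 of 6 arrays. CD3D and CD3G were at background in OCI-Ly3 and DB as in HBL-1, and EPCAM at background in OCI-Ly3 and DB as in K422, each on all 6 arrays.

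**Figure D5:**
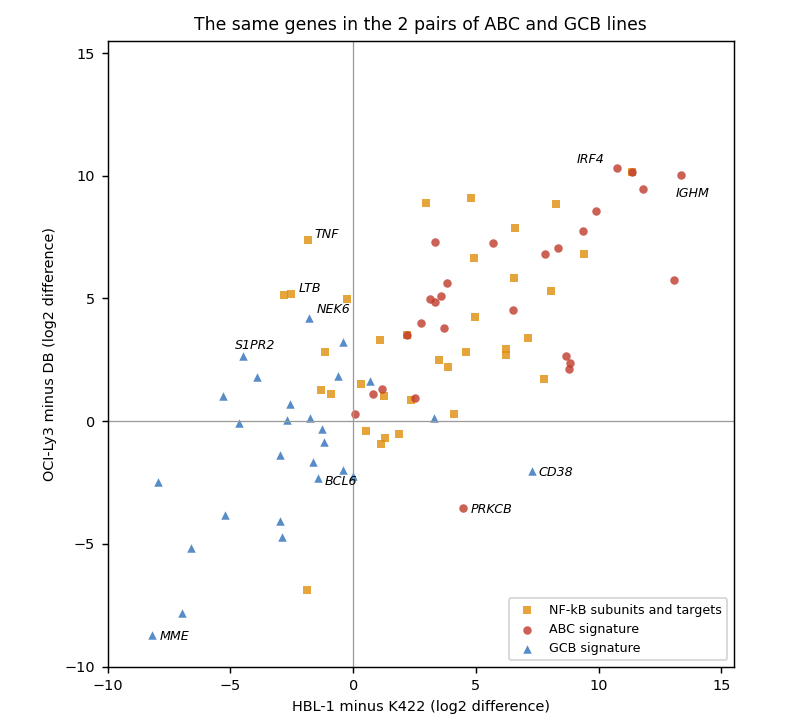
HBL-1 minus K422 (x axis) against OCI-Ly3 minus DB (y axis), both log2 differences of means over 3 and 3 samples, for the tested genes of the ABC signature, GCB signature (27 of 28) and NF-kB lists. Most ABC genes lie at the upper right, PRKCB and CD38 lie at the lower right, and TNF (-1.86 and 7.36), LTB and S1PR2 lie at the upper left. Genes at background in a line, such as PRKCB in OCI-Ly3 and CD38 in K422, are drawn at their measured signal, which does not settle the size of the difference.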

How the data were processed

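Per the labels and file headers, RNA of siFOXP1 cells (Cy3) and siCtrl cells (Cy5) was hybridised to Agilent whole human genome 4x44K arrays without dye swap, so a dye bias of a probe is the same in both lines. The authors deposited scanner intensity values from Feature Extraction (10.7.3.1 for HBL-1 and K422, 10.5.1.1 for DB and OCI-Ly3), background-subtracted and dye-normalized within each array by linear and loess fits. The deposited log2 ratios were not used, since a ratio does not give the level in 1 channel.

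Here the Cy5 processed signals were taken to log2, control spots and flagged outlier spots were left out, the 2 arrays of a replicate number were averaged and the 6 samples were quantile normalized in R 4.3.3. Of 41000 probes, 24770 were well above background on all arrays of at least 1 line. A gene was represented by its brightest kept probe, giving 17896 genes, of which 12602 symbols matched RefSeq. HBL-1 and K422 were compared with lmFit and eBayes of limma 3.58.1, two-sided, with Benjamini-Hochberg adjustment over all genes. The 4 lines were fitted together for the difference between pairs. All adjusted p-values in the report are from limma. Scripts were tested on simulated data. The number of arrays limits the precision, and p-values measure the spread between the labelled samples. The 3 HBL-1 and K422 slides were the batch known from the files, and the within-slide comparison rests on 1 sample of each line.

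Named genes were members of the gene lists by role, the 10 with the largest difference in each direction among called genes measured on all 12 arrays, the 5 with the largest bound in each direction, and the 5 with the largest difference between the pairs in each direction. Bounds compare the bright line's mean with the higher, per sample, of the lowest signal well above background and the dim probe's own. The comparison and the lists were chosen with earlier results of these data known. Alternatives covered the signal column, background correction, normalization, filter, arrays used, slide, replicate block, the Cy3 channel, the methods' t-test and each replicate left out. Values of some members are not reported here and are not drawn by name, but they are in the counts and medians of the lists.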

Additional observations from a re-analysis of the deposited data

Results flagged for a closer look

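Each result here is a gene whose HBL-1 minus K422 difference was opposite in sign to its OCI-Ly3 minus DB difference. The difference between the pairs itself passed the limma test over all genes. For SLC2A5 the OCI-Ly3 minus DB difference (-0.58, limma adjusted p = 0.051) was not called. Each pair was scanned in its own session, so the pair and the session cannot be told apart. Values are the HBL-1 minus K422 difference less the OCI-Ly3 minus DB difference, on the log2 scale, over 3 samples of each line.

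Genes with the greater difference in HBL-1 minus K422 were CRYM (10.00), RCAN2 (9.90), SLC2A5 (9.58), RRAS2 (9.32) and PRKCA (9.18), which are among the largest of all genes measured on all 24 arrays. From the lists, BCL2L1 (2.42), NFKBIB (2.07) and REL (2.00) were of this kind. So were CD38 (9.21) and PRKCB (8.06), but CD38 was at background on all K422 arrays and PRKCB on all OCI-Ly3 arrays, so the sizes of their values are not settled. The SLC2A5 and PRKCA values are those of their brighter probes. Between HBL-1 and K422 their other probes differed by 2.59 and 0.94, so these sizes are not settled either.

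In the other direction the largest among genes measured on all 24 arrays were the serotonin receptor gene HTR3A (-13.14), PARM1 (-11.01), the phosphatase gene DUSP4 (-9.95), ADGRG5 (-9.15) and TOX2 (-8.83). The TNF superfamily ligands TNF (-9.22), LTA (-8.01) and LTB (-7.69) were all higher in K422 than in HBL-1 and in OCI-Ly3 than in DB, as were TRAF1 (-3.96) and PLEK (-2.01). LTA was well above background on no DB array and TNF on 4 of 6, so the size of the LTA value is not settled. Of the GCB signature, S1PR2 (-7.16), PTK2 (-6.44), NEK6 (-5.99), ASB13 (-5.85) and VNN2 (-2.43) behaved in the same way. The S1PR2 value is that of its brighter probe, and the other probe differed by -1.42 between HBL-1 and K422.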

How the results depend on the processing

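Over the alternatives the count of genes higher in HBL-1 lay between 3443 (well above background on all 12 arrays) and 5376 (median centring), and that higher in K422 between 4258 (normexp) and 6522 (no filter), apart from a log2 limit of 1, which gave 3111 and 3425. Median centring raised the HBL-1 share of calls from 46.0% to 51.3%. Leaving out each replicate gave 4648 to 4898 and 5474 to 5838 genes, 26 ABC signature genes each time, 20 to 21 GCB signature genes, and 10331 to 10938 genes whose difference differed between the pairs (10806 with all). Counting probes well above background on all 12 arrays left 16 ABC signature genes, since fewer were tested. Single genes that reversed were CD52 (0.643), HLA-DQA1 (0.0536), HLA-DQB2 (0.0905) and MARCKSL1 (0.0188) in the Cy3 channel, and HLA-DOA (-0.0510) and NLRC5 (0.88) with the mean over probes; the cause was not tested for the Cy3 values. Deviations of same-numbered HBL-1 and K422 samples correlated at 0.148, 0.00493 and 0.187, so the numbers were not taken to pair the samples, and not every sample correlated best with its own number; a replicate block gave 4856 and 5670 genes, and 10924 between the pairs. The requirement of all 24 arrays, added after the data were seen, gave 7786. Probes near background limit the size of any difference to a bound.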

Other observations

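K422 replicate 1 differed from the other K422 samples in genes that were picked after their values were seen. Immediate early and stress genes were among those that read higher there: FOS at 10.66 against 7.43 and 6.72, ATF3 at 10.00 against 7.36 and 6.89, and EGR1 at 11.42 against 8.86 and 8.89. CD69, an early activation marker, read 8.64 against 5.86 and 5.62. Interferon-induced genes read higher as well, with OASL at 12.24 against 9.20 and 9.88 and IFIH1 at 9.27 against 6.02 and 6.78. ADM (10.91 against 7.35 and 5.90) and WNT10A (11.26 against 7.28 and 6.63) had the widest gaps, and CABP7 (7.27 against 10.07 and 9.87) and RPA4 (7.94 against 10.87 and 10.40) read lower. These are values of 1 sample, and their cause was not tested.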
